A study of Homo sapiens with 6 samples.

Results

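A set of 8 genes of the aldo-keto reductase family was examined in SW403, an established human colon adenocarcinoma cell line, after knockdown of IRS2. The members, AKR1A1, AKR1B1, AKR1B10, AKR1C1, AKR1C2, AKR1C3, AKR7A2 and AKR7A3, are 8 of the 26490 gene symbols in the count table, and 4 of them (AKR1A1, AKR1B1, AKR7A2 and AKR7A3) were among the 13832 genes with enough counts to be tested. They were taken by symbol, with AKR1B1 as the lead gene because its counts were more than 3-fold lower in the knockdown. The comparison of knockdown with control therefore chose the members, and its values for them are given as a description, with no p-value and with nothing read from whether a member passes a threshold.

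Total RNA was sequenced from 3 control and 3 IRS2 knockdown cultures, each grown for 24 h in DMEM with 10% serum and no treatment. The control samples are titled as controls, carry the genotype label WT and the letters NS in their descriptions. The knockdown samples are titled as knockdowns, while their descriptions carry the letters KO. How IRS2 was lowered, and whether the replicates of a group are separately made lines, is not given in the sources used here, so p-values measure the spread between these cultures only.

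Aldo-keto reductases are mostly cytosolic enzymes that use NADPH to reduce aldehydes and ketones to alcohols. AKR1B1, aldose reductase, turns glucose into sorbitol in the first step of the polyol pathway and also reduces lipid aldehydes and makes prostaglandin F. AKR1C enzymes reduce steroids and prostaglandins, AKR7A enzymes reduce aflatoxin dialdehyde, and AKR1B10 and the AKR1C genes are known for high levels in cells with an active NRF2 stress response.

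Depth was 11816973 to 12585013 counts per control library and 14329348 to 18114656 per knockdown library, so it was greater in every knockdown library. IRS2, an adaptor protein of the insulin and IGF1 receptors, had 32.4, 34.8 and 32.2 CPM (counts scaled to a common library total) in control and 13.0, 12.3 and 11.9 in knockdown libraries, in the direction of the labels. Of the colon epithelium markers, EPCAM, KRT8, KRT18, KRT19, CDX2 and VIL1 were detected well enough to be tested, while KRT20, CDX1 and CEACAM5 had no count in any library. Summed over the 12 markers, control libraries lay at 2537 to 2637 CPM and knockdown libraries at 2364 to 2457 CPM. KRT8 and KRT18, which make up most of that sum, had log2 fold changes of -0.05 and -0.05 and adjusted p-values of 0.132 and 0.209 (edgeR). KRT19 (-0.47, adjusted p = 4.35e-08) and EPCAM (-0.21, adjusted p = 0.00581) were lower, CDX2 (0.14, adjusted p = 0.0148) was higher, and VIL1 had 0.35 (adjusted p = 0.0999; edgeR's quasi-likelihood test). At an adjusted p under 0.05 (edgeR's quasi-likelihood test, Benjamini-Hochberg over all tested genes), 38.5% of tested genes differed between the groups, 19.3% higher and 19.2% lower in the knockdown. Higher genes were 50.2% of these calls with TMM normalisation and 40.8% with scaling by library size alone. The CPM of the groups did not overlap for 48.4% of tested genes. All 4 tested members were past this threshold, 3 higher and 1 lower, and nothing is read from that count because the contrast chose them.

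Promoter sequences are shown for AKR1B1, the lead gene, and for the neighbouring paralogues AKR7A2 and AKR7A3, because AKR1B1 was lower and AKR7A3 higher in the knockdown, while AKR7A2, beside AKR7A3 on the chromosome, overlapped between the groups. Each is 300 bases, 250 before and 50 after the annotated start, 5′ to 3′ on the gene's strand, from RefSeq on GRCh38.p14. Capitals mark matches, on either strand, to 6 searched motifs. These were the antioxidant response element core, written TGACNNNGC, the tonicity element core, written TGGAAA, the element TATAAA, the GC box, written GGGCGG, the box of the letters CCAAT, and the forkhead core, written TGTTTAC. The windows are chr7:134459051-134459350 (minus strand) for AKR1B1, chr1:19312095-19312394 (minus strand) for AKR7A2 and chr1:19288721-19289020 (minus strand) for AKR7A3.
AKR1B1: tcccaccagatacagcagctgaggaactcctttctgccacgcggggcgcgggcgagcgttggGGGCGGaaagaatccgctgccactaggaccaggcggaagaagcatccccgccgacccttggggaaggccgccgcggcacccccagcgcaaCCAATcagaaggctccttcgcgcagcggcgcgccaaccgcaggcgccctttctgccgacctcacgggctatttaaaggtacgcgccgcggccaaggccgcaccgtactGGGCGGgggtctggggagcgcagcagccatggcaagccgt
AKR7A2: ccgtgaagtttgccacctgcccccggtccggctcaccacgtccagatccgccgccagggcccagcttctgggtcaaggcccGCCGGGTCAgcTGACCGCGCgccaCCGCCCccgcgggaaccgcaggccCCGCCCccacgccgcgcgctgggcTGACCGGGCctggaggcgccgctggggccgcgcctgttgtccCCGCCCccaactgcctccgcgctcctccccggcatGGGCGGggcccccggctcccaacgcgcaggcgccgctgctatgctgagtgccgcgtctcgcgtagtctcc
AKR7A3: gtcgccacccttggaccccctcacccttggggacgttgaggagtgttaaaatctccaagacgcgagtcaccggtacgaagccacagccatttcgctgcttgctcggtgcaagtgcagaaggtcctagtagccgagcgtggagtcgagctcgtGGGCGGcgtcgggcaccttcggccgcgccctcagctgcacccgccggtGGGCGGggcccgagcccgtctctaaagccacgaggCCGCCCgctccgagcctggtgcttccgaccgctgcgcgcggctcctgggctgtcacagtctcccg

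The AKR1B1 window held 2 GC boxes, 1 before the start and 1 at position 11 after it, and 1 CCAAT box that begins 98 bases before the start. It held no match to the antioxidant response element core, the tonicity element core, TATAAA or the forkhead core, which says only that these letters are not in this window. A second AKR1B1 start in the table, with its window at chr7:134459190-134459489, overlaps the first and held 1 GC box and 1 CCAAT box. The AKR7A2 window held 3 antioxidant response element cores and 4 GC boxes, and the AKR7A3 window held 3 GC boxes and no antioxidant response element core. Among 35116 promoters of the same length, 13.3% held at least 1 antioxidant response element core, 45.0% a GC box and 34.6% a CCAAT box. The tonicity element core occurred in 20.7%, TATAAA in 11.5% and the forkhead core in 3.42%, and no match is taken as a bound site.

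Promoter base composition differed between the tested members and the AKR1C genes. In the windows of the 4 tested genes the CpG dinucleotide was present at 0.745 (AKR1A1), 0.934 and 0.813 (both AKR1B1 starts), 0.896 (AKR7A2, the window shown) and 0.954 (AKR7A3) of the number expected from base composition. The windows of the AKR1C genes, none of which had enough counts to be tested, had 0.240 (AKR1C1), 0.236 (AKR1C2) and 0 for both AKR1C3 starts. The median of all promoters was 0.579. The GC content was 54.3% to 77.3% in windows of tested members and 33.7% to 41.3% in those of the AKR1C genes. Promoters of 7 of the 8 members were matched, AKR1B10 being the exception.

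AKR1B1 was the member with the largest difference. It lies at chr7:134127108-134144036 on the minus strand of GRCh37, with 10 exons in its canonical transcript of 1361 nt. Its counts were 422, 447 and 385 in control, against 137, 174 and 157 in the deeper knockdown libraries. These counts correspond to 33.5, 35.6 and 32.6 CPM in control and 9.56, 10.2 and 8.67 CPM in knockdown libraries. The 3 knockdown values lay close together and far below all 3 control values, and the groups did not overlap. The mean was 33.9 ± 1.54 CPM (SD, n = 3) in control and 9.47 ± 0.768 CPM (SD, n = 3) in knockdown libraries. On the scale of edgeR, with TMM normalisation, the log2 fold change was -1.81 ± 0.08 (SE), a level 3.51-fold lower, with 3.32 to 3.71-fold at 1 SE on either side. In these bulk libraries, fewer cells with AKR1B1 RNA and less of it per cell cannot be told apart.

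**Figure D1:**
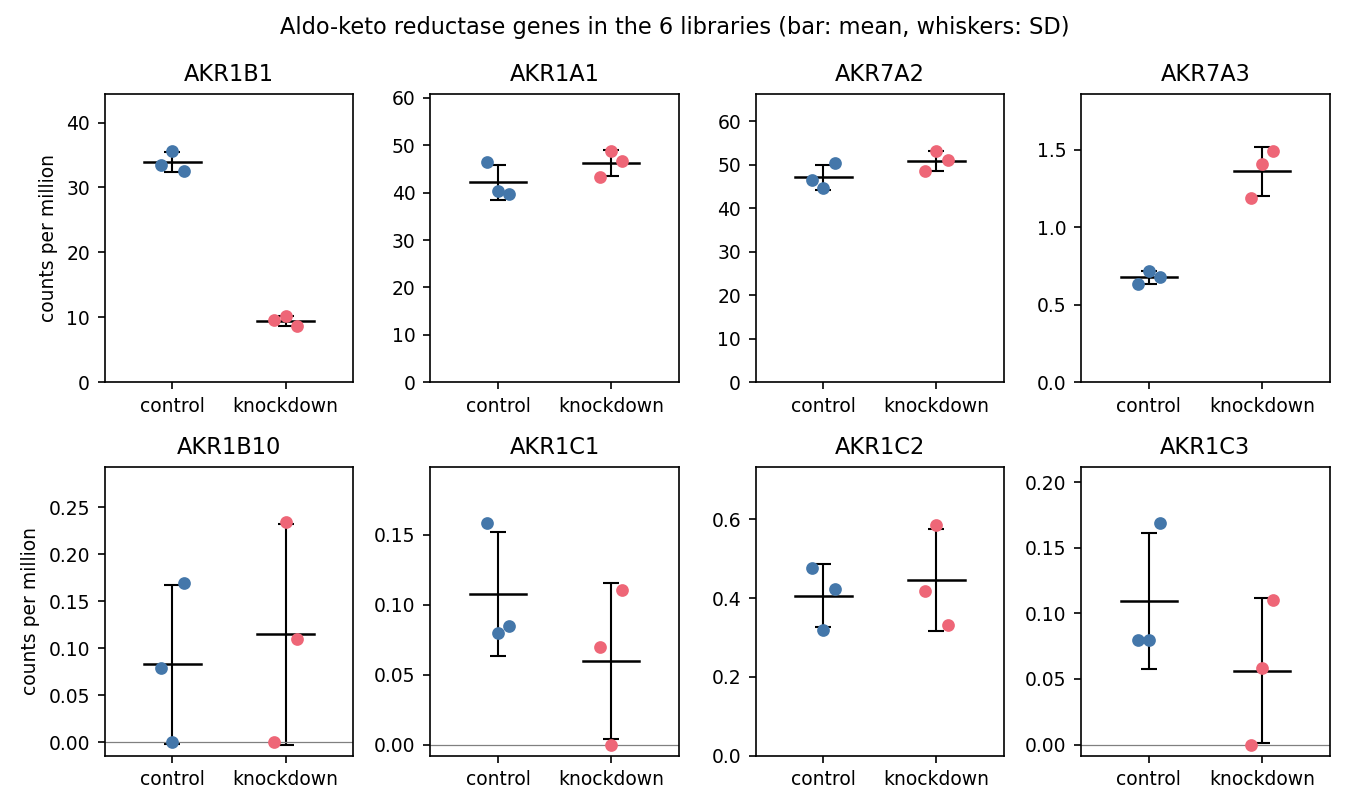
CPM of the 8 aldo-keto reductase genes (vertical axes, linear and scaled separately for each gene) in the 3 control and 3 IRS2 knockdown libraries. Points are libraries, horizontal bars are means and whiskers are SD. The control points of AKR1B1 lie at 32.6 to 35.6 and its knockdown points at 8.67 to 10.2, AKR1A1 and AKR7A2 overlap between groups, and the 4 genes AKR1B10, AKR1C1, AKR1C2 and AKR1C3 stay at or under 0.586.

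Among the 10449 tested genes that averaged 100 counts or more per library, AKR1B1 ranked 14th by the size of its lower level, and among all tested genes it ranked 156th. Per kilobase of transcript, its level went from above 76.5% of tested genes in control to above 45.1% in knockdown libraries. In counts thinned to the depth of the smallest library it had 388, 422 and 385 in control and 111, 127 and 106 in knockdown libraries, with a log2 fold change of -1.76 at this equal depth. In the authors' deposited normalized table, in which each library's counts are divided by 1 constant, AKR1B1 stood at 469, 501 and 455 in control and 136.9, 146.4 and 125.3 in knockdown libraries. AKR1B1 stayed between -1.87 and -1.75 (log2 fold change) over 14 alternative fits.

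Markers of other cell types were set beside AKR1B1. Control libraries had 9.56 to 28.1 CPM for 8 fibroblast markers summed, highest in control replicate 1, and knockdown libraries had 5.98 to 7.45 CPM. COL1A1, which encodes a chain of type I collagen, had 193, 72 and 67 counts in control and 61, 62 and 72 in knockdown libraries. Control replicate 1 stood apart from the other 5 libraries. In CPM, which allows for the deeper knockdown libraries, every control library still lay above every knockdown library. The means were 8.91 ± 5.56 CPM in control and 3.95 ± 0.312 CPM in knockdown libraries (SD, n = 3 each). Of the 3 fibroblast markers tested, COL1A1 had a log2 fold change of -1.15 (adjusted p = 0.00290), COL3A1 -1.71 (adjusted p = 0.0136) and PDGFRB -0.18 (adjusted p = 0.609, edgeR's quasi-likelihood test). COL3A1 had 34, 19 and 5 counts in control and 6, 3 and 14 in knockdown libraries, so its groups overlapped. Of 4 endothelial markers, PECAM1 and CDH5 were at 0 in every library and VWF had 4 to 11 counts. Of 4 hepatocyte markers, ALB and TTR were at 0 in every library, while SERPINA1, a secreted protease inhibitor, was higher with the knockdown (40.7 against 54.5 CPM, log2 fold change 0.45, adjusted p = 7.06e-07). The summed leukocyte markers ranged from 1.99 to 3.72 CPM in control libraries and from 2.17 to 3.21 CPM with the knockdown. Without control replicate 1, AKR1B1 had a log2 fold change of -1.82, and the part of the other markers in its value was not tested.

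The words of 31 bases in the AKR1B1 transcript were compared with all other annotated transcripts to see where reads could be shared. Of these words, 20.6% also occurred in transcripts of 8 processed pseudogenes, AKR1B1P1 to AKR1B1P8, none of which has an entry in the count table. No word of AKR1B1 occurred in a gene of the count table, AKR1B10 included. How reads with several matches were counted is not given in the sources used here.

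The genes whose pattern over the 6 libraries was nearest to that of AKR1B1, by Euclidean distance of log2 CPM centred on each gene, were TUB (distance 0.178), EPB41L3 (0.185), AMOTL1 (0.192), HLTF (0.229) and RTL8C (0.231). Their log2 fold changes were -1.74, -1.87, -1.69, -1.67 and -1.66. They were selected for likeness to a gene that was itself selected on this contrast, so their values are a description. The likest gene to AKR1A1 was CYB5R2 (0.0639), to AKR7A2 UNC13B (0.0452) and to AKR7A3 OLFM1 (0.164).

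Tested genes beside AKR1B1 on chromosome 7 had smaller fold changes. On the lower-coordinate side, SLC35B4, a nucleotide sugar transporter 125.4 kb away, had a log2 fold change of -0.18 ± 0.05 (SE; adjusted p = 0.00926, edgeR's quasi-likelihood test), and it lost the threshold without control replicate 2 (-0.15, adjusted p = 0.0603) or control replicate 3 (-0.15, adjusted p = 0.0531). EXOC4, an exocyst subunit 375.8 kb away, was higher by 0.20 ± 0.05 (adjusted p = 0.00375). On the other side, BPGM, bisphosphoglycerate mutase, had 0.07 ± 0.09 (adjusted p = 0.596) and CALD1, caldesmon, was higher by 0.14 ± 0.04 (adjusted p = 0.00365). AKR1B10, between AKR1B1 and BPGM at 68.3 kb from AKR1B1, had too few counts for a test.

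**Figure D2:**
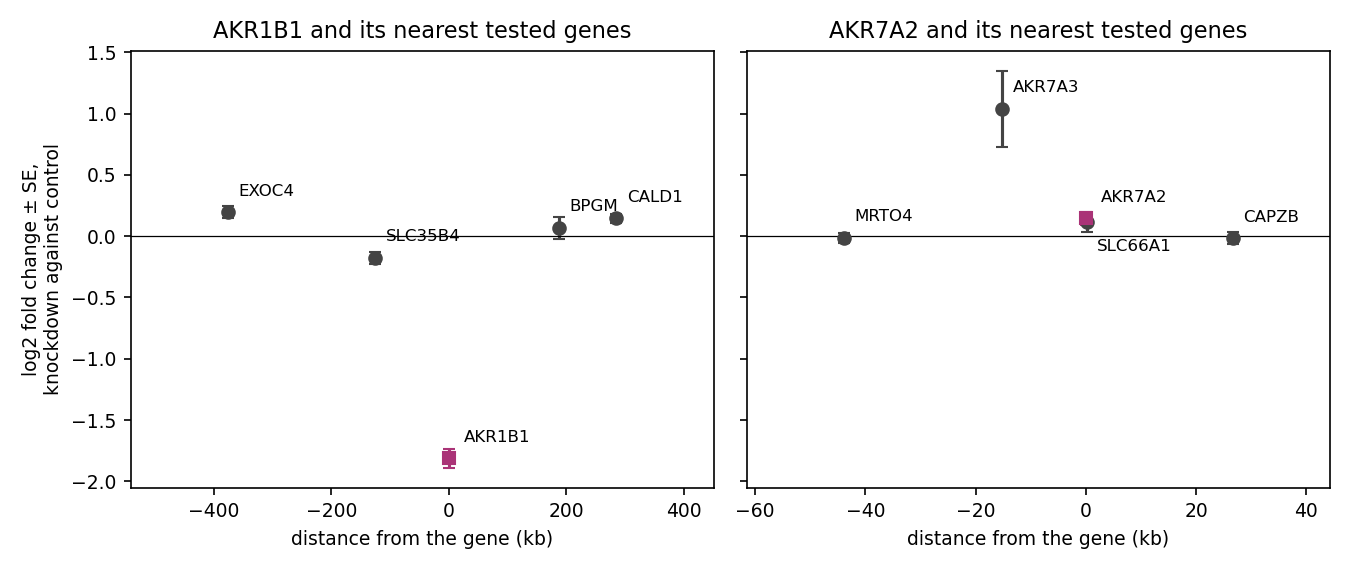
Log2 fold change with SE (vertical axis) of AKR1B1 (left) and AKR7A2 (right), drawn as squares, and of the nearest tested genes on each side, drawn as circles, against their distance in kb (horizontal axis). AKR1B1 stands at -1.81 while its 4 neighbours lie between -0.18 and 0.20, and AKR7A3 at 1.04 stands above AKR7A2 at 0.15.

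AKR1A1, the general aldehyde reductase that also reduces glucuronate, was measured at a high level in both groups. It lies at chr1:46016215-46035721 on the plus strand of GRCh37 (9 exons, 1407 nt). It had 46.5, 40.4 and 39.7 CPM in control and 43.3, 48.8 and 46.6 CPM in knockdown libraries. The groups overlapped, since control replicate 1 lay above knockdown replicate 1. The means were 42.2 ± 3.72 CPM and 46.2 ± 2.73 CPM (SD, n = 3 each), and the log2 fold change was 0.16 ± 0.06 (SE). Over 14 alternative fits the value ran from 0.12 to 0.24. No 31-base word of AKR1A1 occurred in another gene.

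AKR7A2, an aflatoxin aldehyde reductase that also reduces succinic semialdehyde, resembled AKR1A1. It lies at chr1:19630459-19638638 on the minus strand (7 exons, 1360 nt). It had 46.5, 44.7 and 50.4 CPM in control and 48.6, 53.1 and 51.1 CPM in knockdown libraries. The groups overlapped through control replicate 3. The means were 47.2 ± 2.91 CPM and 51.0 ± 2.26 CPM (SD, n = 3 each), with a log2 fold change of 0.15 ± 0.05 (SE), and 0.12 to 0.20 over 14 alternative fits.

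AKR7A3, its paralogue with the same aflatoxin aldehyde reductase activity, lies 15.2 kb away at chr1:19609067-19615264 on the minus strand (7 exons, 1215 nt) and was counted at a much lower level. It had 8, 9 and 8 counts in control and 17, 24 and 27 in knockdown libraries. In CPM these were 0.636, 0.716 and 0.677 in control and 1.19, 1.41 and 1.49 in knockdown libraries, so all knockdown values lay above all control values. The log2 fold change was 1.04 ± 0.31 (SE), and 0.96 to 1.18 over 13 alternative fits. The ratio of the pooled levels was 2.03, given as a description. AKR7A3 passed the expression filter only through the knockdown libraries, so a gene like it that was not higher there would not have been tested. Thinned to equal depth, it had 8, 9 and 8 counts in control and 17, 16 and 23 in knockdown libraries.

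Reads of AKR7A3 could be shared with its paralogues to a large extent. Of its 31-base words, 42.4% also occurred in AKR7L and 13.1% in AKR7A2, so its counts are uncertain. AKR7L, the third gene of this cluster, had 4, 5 and 8 counts in control and 12, 7 and 8 in knockdown libraries, with overlapping groups. Only 11.7% of the words of AKR7A2 occurred in AKR7A3. The ratio of AKR7A2 to AKR7A3 counts was 73.1, 62.3 and 74.4 in control and 41, 37.8 and 34.3 in knockdown libraries, without overlap. The other tested genes around AKR7A2 were not past the threshold (edgeR's quasi-likelihood test). SLC66A1, a lysosomal amino acid transporter that starts 0.182 kb from AKR7A2 on the other strand, had a log2 fold change of 0.11 ± 0.08 (adjusted p = 0.262).

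AKR1B10, a close relative of AKR1B1 that reduces retinal and lipid aldehydes, had 1, 0 and 2 counts in control and 0, 4 and 2 in knockdown libraries. Pooled over each group this was 0.0812 CPM against 0.121 CPM, and the ratio of knockdown to control was 1.49, with a 95% interval of 0.319 to 9.23 from counting error alone. A difference was therefore not detectable at this depth. A count of 0 over a whole group would allow up to 0.0812 CPM in control and 0.0606 CPM in knockdown libraries. Of the words of AKR1B10, 36.7% also occurred in other genes, 2747 in number, and 29.2% in genes of the count table, so its few counts are uncertain. The largest part, 21.3%, occurred in AKR1B15, which had 1 count in each of 2 knockdown libraries and none elsewhere.

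The AKR1C genes, which reduce steroid hormones and prostaglandins, were also near the floor. AKR1C1, which inactivates progesterone, had 2, 1 and 1 counts in control and 1, 0 and 2 in knockdown libraries. AKR1C2, which inactivates dihydrotestosterone, had 6, 4 and 5 counts in control and 6, 10 and 6 in knockdown libraries, a pooled ratio of 1.10 (95% interval 0.543 to 2.27, counting error only). AKR1C3, which makes testosterone and prostaglandin F, had 1, 1 and 2 counts in control and 0, 1 and 2 in knockdown libraries. For each of these 3 genes the groups overlapped, and no difference was detectable at this depth. Because 58.2% of the words of AKR1C2 also occurred in AKR1C1, the counts of the 3 genes were added, giving 9, 6 and 8 in control and 7, 11 and 10 in knockdown libraries. The summed level was 0.616 ± 0.124 CPM in control and 0.568 ± 0.0794 CPM in knockdown libraries (SD, n = 3 each, with TMM normalisation), a log2 ratio of -0.12 that was smaller than the spread of 0.26 (SD, log2 scale) between replicates.

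Compared per kilobase of canonical transcript, the order of levels in control libraries was AKR7A2 (34.7 ± 2.14 CPM per kb), AKR1A1 (30.0 ± 2.65) and AKR1B1 (24.9 ± 1.13; SD, n = 3). AKR7A2 and AKR1A1 overlapped in control libraries, and AKR1B1 lay below both. In knockdown libraries AKR7A2 (37.5 ± 1.66 CPM per kb) and AKR1A1 (32.9 ± 1.94) held the first places, and AKR1B1 was at 6.96 ± 0.564. AKR7A3 followed at 0.557 ± 0.0333 CPM per kb in control and 1.12 ± 0.129 in knockdown libraries. AKR1C2 had 0.126 and 0.139 CPM per kb, and AKR1C3, AKR1B10 and AKR1C1 were lower still, with ranges of a few counts that overlap.

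AKR1B1 thus made up a smaller share of the aldo-keto reductase counts in the knockdown libraries. Per length, its share of the 8 members was 26.6%, 29.5% and 26.6% in control and 9.40%, 9.05% and 8.10% in knockdown libraries. The ratio of AKR1B1 to AKR1A1 counts, which does not depend on library scaling, was 0.721, 0.880 and 0.821 in control and 0.221, 0.209 and 0.186 in knockdown libraries. The 8 members together summed to 124.7 ± 3.06 CPM per control library and 108.7 ± 5.58 CPM per knockdown library (SD, n = 3 each). Without AKR1B1, the other 7 members summed to 94.4, 86.3 and 91.6 CPM in control and 93.7, 104.2 and 99.9 CPM in knockdown libraries, with overlapping groups.

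**Figure D3:**
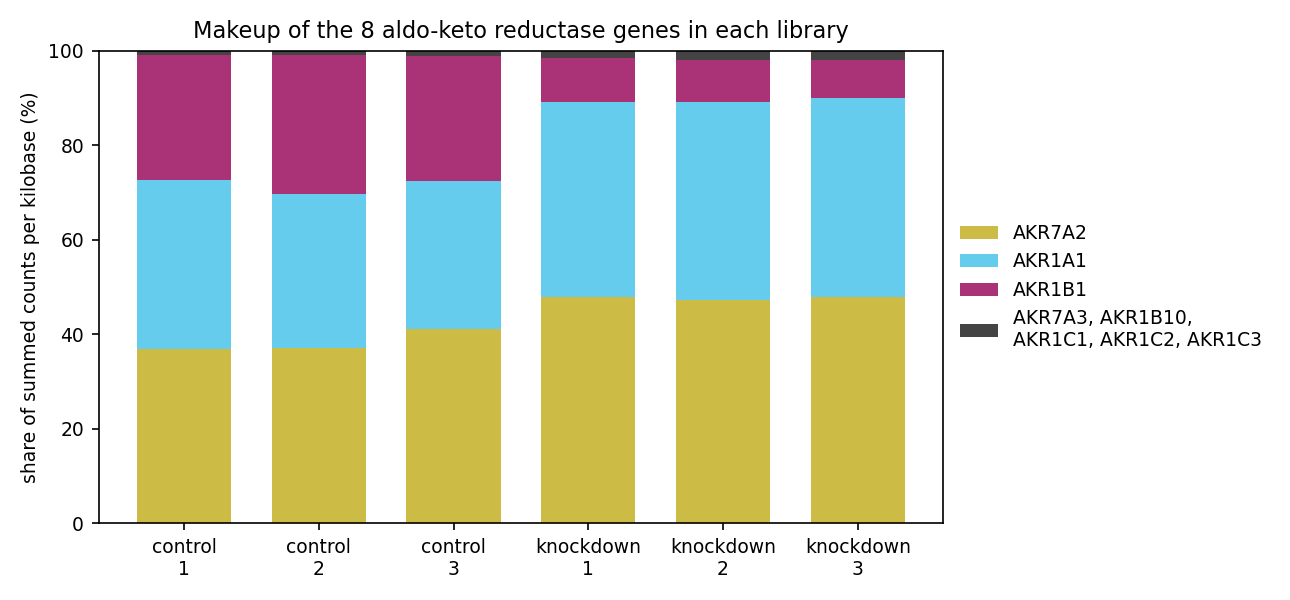
Share of the summed counts per kilobase of the 8 aldo-keto reductase genes (vertical axis, percent) taken by AKR7A2, AKR1A1, AKR1B1 and the other 5 members together, in each of the 6 libraries (bars). The AKR1B1 segment takes 26.6% to 29.5% of the control bars and 8.10% to 9.40% of the knockdown bars.

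Of 11 further genes of the superfamily, 9 were in the count table and 3 were tested. AKR1E2, a reductase of the sugar derivative anhydrofructose, had 4, 15 and 6 counts in control and 20, 22 and 28 in knockdown libraries. Its log2 fold change was 1.08 ± 0.37 (SE; adjusted p = 0.0262, edgeR's quasi-likelihood test), and like AKR7A3 it passed the filter through the knockdown libraries. The call was lost in the DESeq2 Wald test (adjusted p = 0.0941) and without control replicate 1 (0.74, adjusted p = 0.147), control replicate 3 (adjusted p = 0.0970), knockdown replicate 1 (adjusted p = 0.0501) or knockdown replicate 3 (adjusted p = 0.0744). The potassium channel beta subunits of this fold had 0.20 ± 0.12 (KCNAB2, adjusted p = 0.190) and -0.39 ± 0.24 (KCNAB3, adjusted p = 0.207). KCNAB2 was past the threshold without knockdown replicate 3 (0.32, adjusted p = 0.0332). AKR1C4 and AKR1D1, the steroid reductases of bile acid synthesis, had no count in any library.

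Genes that act beside AKR1B1 in the polyol pathway had values nearer to 0. SORD, sorbitol dehydrogenase, the enzyme that turns the sorbitol made by AKR1B1 into fructose, had 97.1 ± 6.31 CPM in control and 95.2 ± 1.12 CPM in knockdown libraries (SD, n = 3; log2 fold change 0.0004 ± 0.05, adjusted p = 0.995). Of 6 tested genes of glucose entry and fructose use, 3 were higher and none lower (50% past the threshold, against 38.5% of all tested genes). Their median was 0.06, against -0.0039 over all tested genes (log2 fold change). The 3 were hexokinases HK2 (0.26, adjusted p = 5.12e-06) and HK1 (0.15, adjusted p = 0.00116) and the glucose transporter SLC2A1 (0.11, adjusted p = 0.00383). Of 10 tested genes of the response to high salt, in which AKR1B1 is a classical target, 3 were higher and none lower, with a median of -0.02, and the 30% past the threshold is below the 38.5% of all tested genes. NFAT5, the transcription factor of that response, was among them (0.21 ± 0.07, adjusted p = 0.0177), but its groups overlapped in CPM, and the call was lost without control replicate 1 (0.15, adjusted p = 0.113), control replicate 2 (0.19, adjusted p = 0.0632) or knockdown replicate 1 (0.12, adjusted p = 0.115), and in the DESeq2 Wald test (adjusted p = 0.157).

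Genes of the NRF2 response, which includes several aldo-keto reductases among its targets, were mostly higher in the knockdown libraries. Of 27 tested targets outside the family, 18 were higher and 1 lower, so that 70.4% were past the threshold against 38.5% of all tested genes, and their median was 0.22. NQO1, a quinone reductase, went from 481.3 to 619.5 CPM (0.39 ± 0.03, adjusted p = 3.60e-09), and GCLM, a subunit of the enzyme that starts glutathione synthesis, was higher by 0.42 ± 0.04 (adjusted p = 1.41e-07). The 1 lower gene was ME1, malic enzyme (-0.29 ± 0.05, adjusted p = 8.12e-05). Of 10 tested regulators 3 were higher and 1 lower (40%), with a median of 0.06. SQSTM1 was higher by 0.54 ± 0.03 (adjusted p = 3.98e-11, edgeR's quasi-likelihood test). The lower one was RBX1 (-0.14 ± 0.05, adjusted p = 0.0334), whose call was lost with thinned counts (adjusted p = 0.162) and in the DESeq2 Wald test (adjusted p = 0.144), among other alternatives. NFE2L2, which encodes NRF2, was higher by 0.24 ± 0.04 (adjusted p = 0.000151). KEAP1, its inhibitor, had 0.10 ± 0.03 (adjusted p = 0.0247), a call lost without control replicate 2 (adjusted p = 0.0880), control replicate 3 (adjusted p = 0.0557) or knockdown replicate 2 (adjusted p = 0.0652), with library size alone (adjusted p = 0.104) and in the DESeq2 Wald test (adjusted p = 0.0715). AKR1B10 and the AKR1C genes, the members best known as NRF2 targets, were the ones with too few counts to be tested.

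Other routes that handle the substrates of the members were counted beside the 38.5% of all tested genes past the threshold. Of 16 tested aldehyde dehydrogenases, which oxidise the aldehydes that AKR enzymes reduce, 2 were higher and 4 lower (37.5%, near that share), with a median of -0.04. ALDH1A2, which makes retinoic acid from retinal, had a log2 fold change of -2.27 ± 0.12 (adjusted p = 3.12e-11), and ALDH2, the mitochondrial acetaldehyde dehydrogenase, was higher (0.36, adjusted p = 0.000316). Of 20 tested carbonyl reductases of other families, 4 were higher and 5 lower (45%), and the median was -0.03. The higher ones included NQO1, which is also counted among the NRF2 targets. CBR4 was among the lower ones (-0.46, adjusted p = 0.000358, edgeR's quasi-likelihood test). Of 16 tested genes of glutathione conjugation and glyoxalase, 2 were higher and 7 lower (56.2%) with a median of -0.14. The lower ones included GSTM2 at -2.04 (adjusted p = 5.29e-06) and GSTM3 at -1.79 (adjusted p = 5.24e-07, edgeR's quasi-likelihood test). GSTM2 had 42, 39 and 36 counts in control and 12, 16 and 9 in knockdown libraries. Its knockdown libraries alone would not have passed the expression filter. GLO1, the glyoxalase that removes methylglyoxal, also a substrate of AKR1B1, fell from 192.9 to 142.9 CPM (-0.40 ± 0.03, adjusted p = 2.20e-08).

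Among 20 tested genes of steroid and retinoid oxidation and reduction, 3 were higher and 5 lower (40%). This is near the 38.5% of all tested genes, which is the share to set beside each list here. The lower ones included STS, steroid sulfatase (-1.65, adjusted p = 0.00284, edgeR's quasi-likelihood test). STS had 13, 19 and 14 counts in control and 2, 9 and 8 in knockdown libraries. It passed the expression filter only through the control libraries. Of 12 tested prostaglandin genes, 1 was higher and 3 lower (33.3%), with HPGD, the prostaglandin dehydrogenase, at -0.49 (adjusted p = 0.000461). Of 14 tested genes that supply NADPH, the cofactor of all members, 5 were higher and 3 lower (57.1%), and with library size alone 5 were higher and 5 lower. The medians of these 3 lists were -0.03, -0.11 and 0.09.

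**Figure D4:**
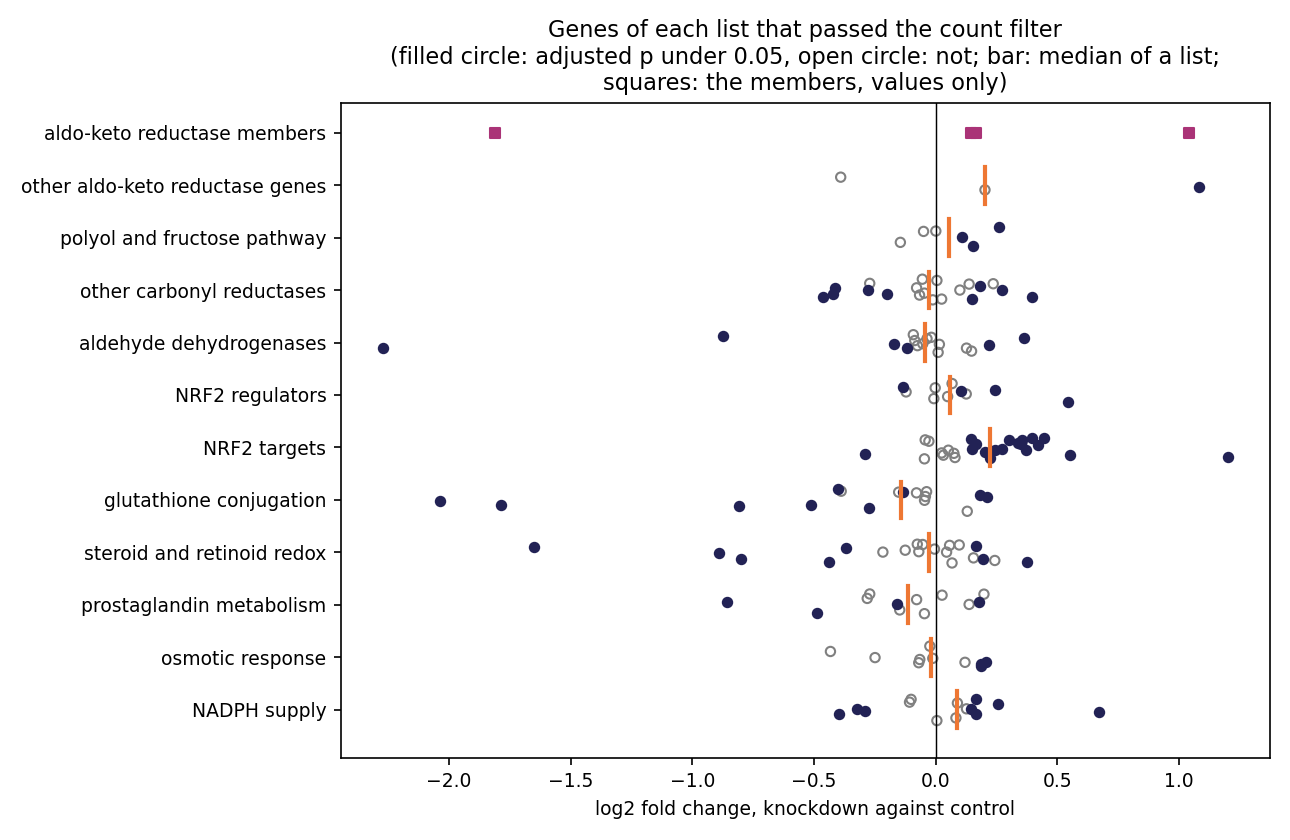
Log2 fold change, knockdown against control (horizontal axis), of the genes that passed the count filter in each list (vertical axis). Squares are the 4 tested members, filled circles are genes with an adjusted p under 0.05, open circles are the others, and orange bars are list medians. AKR1B1 is the square at -1.81, while the NRF2 targets lie mostly to the right of 0 with a median of 0.22.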

How the data were processed

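Gene counts of 6 libraries, 3 control and 3 knockdown by their titles, were used as deposited by the authors: whole-number read counts per gene symbol. A second table deposited by the authors holds a normalized signal, each library's counts divided by 1 constant, for the 16213 genes with a total of at least 10. STAR 2.6.1a, Salmon, DESeq2 and the hg19 build are named in the submitters' processing notes, without their roles; strand and multi-match settings are not given in the sources used here. Per the labels' protocols, libraries were amplified by PCR, so intervals cover counting error only.

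Counts were tested with edgeR 4.0.16 in R 4.3.3 (filterByExpr, TMM factors, quasi-likelihood F-test, group as the only term, Benjamini-Hochberg, threshold 0.05), and the fit was tested on simulated data. The SE is the absolute log2 fold change over the square root of F. CPM values use the library total unless TMM is named. An exact permutation test of 3 against 3 cannot give a two-sided p below 0.1. Ratios of pooled counts of untested members carry exact 95% intervals, and a count of 0 was taken to allow 3 counts over the group.

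Members and lists were chosen with earlier results of these data known. Besides the members, the text names tested genes of the superfamily, IRS2, NFE2L2, KEAP1, SORD, NFAT5 and up to 3 genes with the smallest adjusted p in each direction of a list. It also names the genes likest to a tested member (5 for AKR1B1, 1 for each other, among genes averaging 100 counts or more, prior count 2 for log2 CPM). Named too are the 2 tested neighbours on each side of AKR1B1, AKR7A2 and AKR7A3. Those of AKR1A1 and, AKR1E2 apart, of the AKR1C genes, some past the threshold, are not described. They are among the 76 genes followed under the alternatives. Untested genes of the superfamily and untested cell type markers are named with counts only. Tested cell type markers are named with values from the fit or within sums of CPM. Gene positions and canonical transcripts are from GENCODE version 44 lifted to GRCh37, and 95.8% of tested genes had a transcript length. Alternatives were DESeq2 size factors (edgeR's RLE factors) or library size alone, a looser filter (none) or a stricter one (an average of 50 counts or more), DESeq2 1.42.0 with its Wald test, voom of limma 3.58.1, thinning to the smallest library, a replicate block, and leaving out each library.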

Additional observations from a re-analysis of the deposited data

How the results depend on the processing

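The lower AKR1B1 level, the counts of genes past the threshold and the summed AKR1C ratio kept their direction and stayed within the spread or within 1.5 times under every alternative run. The count of members past the threshold, a description because the contrast chose them, was 4 and became 2 with library size alone, 1 with the filter at an average of 50 counts (which leaves AKR7A3 untested), 1 with the DESeq2 Wald test, 2 with thinned counts and 2 with a replicate block. Leaving out 1 library gave 2 to 4, with 2 without control replicate 2, knockdown replicate 2 or knockdown replicate 3. The calls lost without 1 library were those of AKR1A1 and AKR7A2, and in the DESeq2 Wald test that of AKR7A3 was lost as well. The count of further family genes past the threshold, 1, became 0 with the filter at an average of 50 counts and with the Wald test, and 0 to 1 without 1 library (0 without control replicate 1, control replicate 3 or knockdown replicate 1). The Wald test gave 2 NRF2 regulators past the threshold against 4 in the main fit. It gave 5 steroid and retinoid genes against 8 and 2 prostaglandin genes against 4. Over all tested genes the Wald test gave 3890 past the threshold against 5329, so fewer calls were not particular to these lists. Leaving out 1 library gave 2 to 4 regulators (2 without control replicate 2 or knockdown replicate 2). It gave 2 to 4 prostaglandin genes (2 without knockdown replicate 2), and 4319 to 5256 genes over all tested. Apart from the genes that the stricter filter leaves untested, the cause was not tested.

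Of 1057 values of the 76 genes followed under the alternatives, 971 kept direction and side. A further 75 lost the threshold, 1 gained it and 10 changed sign, none of a gene past the threshold. SORD became -0.0300 with library size alone, -0.0125 with the filter at an average of 50 counts, and it ran from -0.0478 to 0.0375 without 1 library. Leaving out 1 library moved CAPZB between -0.0607 and 0.0276 and MRTO4 between -0.0453 and 0.00751. Same-numbered libraries deviated with correlations of -0.139, 0.0320 and -0.199, and differently numbered ones with -0.108 to 0.209. With 3 libraries per group these values cannot decide whether the numbers pair the libraries, and the labels do not state a pairing. The replicate block was run for comparison only. It gave 4862 genes past the threshold against 5329, and KEAP1 lost the threshold in it (adjusted p = 0.0564, edgeR's quasi-likelihood test). Low counts limit what can be seen for AKR1B10 and the AKR1C genes.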
